A study of Mus musculus with 12 samples.

Results

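The genes described here are 39 components of the junctions that hold intestinal epithelial cells to each other and to the basement membrane, picked by gene symbol from a table of 15855 genes. All 39 were in the table and all 39 were among the 14462 genes that passed the filter on low counts. They comprised 7 claudins, 9 other tight junction genes, 2 genes of actomyosin contractility, 6 adherens junction and cell adhesion genes, 6 desmosome genes, 4 polarity genes, 4 genes of basal adhesion and 1 gap junction gene.

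The RNA came from live EpCAM+7AAD- cells sorted from the small intestine of male C57BL6/J mice aged 8 to 12 weeks, 24 h after surgery. The pMCAO group (n = 5) had the middle cerebral artery permanently occluded, a model of ischaemic stroke without reperfusion, and the sham group (n = 7) had the operation without occlusion of the artery. The labels gave each sample as a separate biological replicate. EpCAM protein was the sort gate, so the Epcam transcript is no independent marker of these cells.

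Tight junctions seal the space between neighbouring epithelial cells near the lumen, and their claudins set which ions and water can pass. Adherens junctions and desmosomes lie beneath them and tie the actin and keratin networks of adjacent cells together, while integrins and laminin anchor the cell base. The study asked how the gut epithelium changes after stroke, and the question here is whether the transcripts of this machinery differed between pMCAO and sham.

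Total counts per sample ran from 7418730 to 31925579. All 10 enterocyte markers checked were present, with a summed level of 15850 to 54440 CPM (counts scaled to a common library total). The highest was pMCAO 1, with all other libraries at 15850 to 29830 CPM and sham 1 to 3 at 21770 to 25380 CPM. The library numbers in the sample titles split the samples: libraries 58 to 61 (sham 1 to 3 and pMCAO 1, called early here) and libraries 62 to 72 (sham 4 to 7 and pMCAO 2 to 5, called later here) stood apart on the first principal component, which carried 40.5% of the variance with or without the 39 genes. This split is a grouping by library number and no labelled batch. Many of the values below differ between these sets, so the pooled values of most named genes are followed by differences (pMCAO minus sham) of mean log2 CPM within each set, of which the early one rests on a single pMCAO library.

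Of the 39 promoters, 27 matched the RefSeq promoter table (GRCm38.p6). The promoters of 3 genes are shown as the 110 bases before the start site because their genes stood at opposite ends of the data described below: Cldn2 was nearly absent from the early libraries, Cldn4 was one of the genes with the largest excess there, and Cldn3, whose gene lies 39.3 kb from Cldn4, differed less between the library sets. Capitals mark a TATA box in Cldn2 (TATAAA) and an E-box in Cldn4 (CAGGTG, read as CACCTG on the printed strand), and the Cldn3 window held no motif searched.
Cldn2, chrX:139800698-139800807, plus strand: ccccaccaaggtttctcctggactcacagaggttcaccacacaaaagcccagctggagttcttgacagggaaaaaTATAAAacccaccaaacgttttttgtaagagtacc
Cldn4, chr5:134946935-134947044, minus strand: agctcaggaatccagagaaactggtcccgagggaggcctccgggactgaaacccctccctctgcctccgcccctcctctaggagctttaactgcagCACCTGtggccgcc
Cldn3, chr5:134986104-134986213, plus strand: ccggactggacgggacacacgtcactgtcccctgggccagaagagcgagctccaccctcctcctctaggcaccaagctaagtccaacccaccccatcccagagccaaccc

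The motifs were searched on both strands in the 250 bases before each start. The GC box GGGCGGG was in 16 of the 27 promoters, against 25.7% of the promoters of 27025 genes, and the E-box CAGGTG was in 13, against 19.4%. The TATA box TATAAA was in 6 (Cldn2, Marveld2, Ctnnb1, Ctnnd1, Pard3 and Gjb1), against 14.3%. The Grhl motif AACCGGTT (0.137% of all genes) and the Tcf/Lef motif ATCAAAG (3.72%) were in none of the 27. These are matches of letters only.

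Levels were compared between genes as CPM per kb of exon, using the exon lengths of the GENCODE M21 annotation (GRCm38). Epcam, a cell adhesion molecule, was the highest of the 39, at 762 ± 249 in sham and 577 ± 323 in pMCAO (SD, n = 7 and n = 5). Dsp, the plakin that links desmosomes to keratin, followed at 238 ± 139 and 135 ± 103. The sealing claudin Cldn7 came next over all samples (145 ± 26.4 and 152 ± 78.1), then the cadherins Cdh17 and Cdh1, Cldn3 and Cldn4. The ranges of these neighbours overlapped, Cdh17 from 106.9 to 165.0 and Cdh1 from 83.8 to 181 per kb, so their order does not exceed their spread.

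The lowest of the 39 were Cldn2, a pore-forming claudin of crypt cells, with a mean of 1.23 per kb over the 12 samples, Cldn12 with 2.12 and the connexin Gjb1 with 2.18. Within the other lists, Cgn and F11r led the tight junction genes, Mylk and Rhoa made up the contractility list, Pard6b and Crb3 led the polarity genes and Itgb4 and Itga6 the basal adhesion genes.

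**Figure D1:**
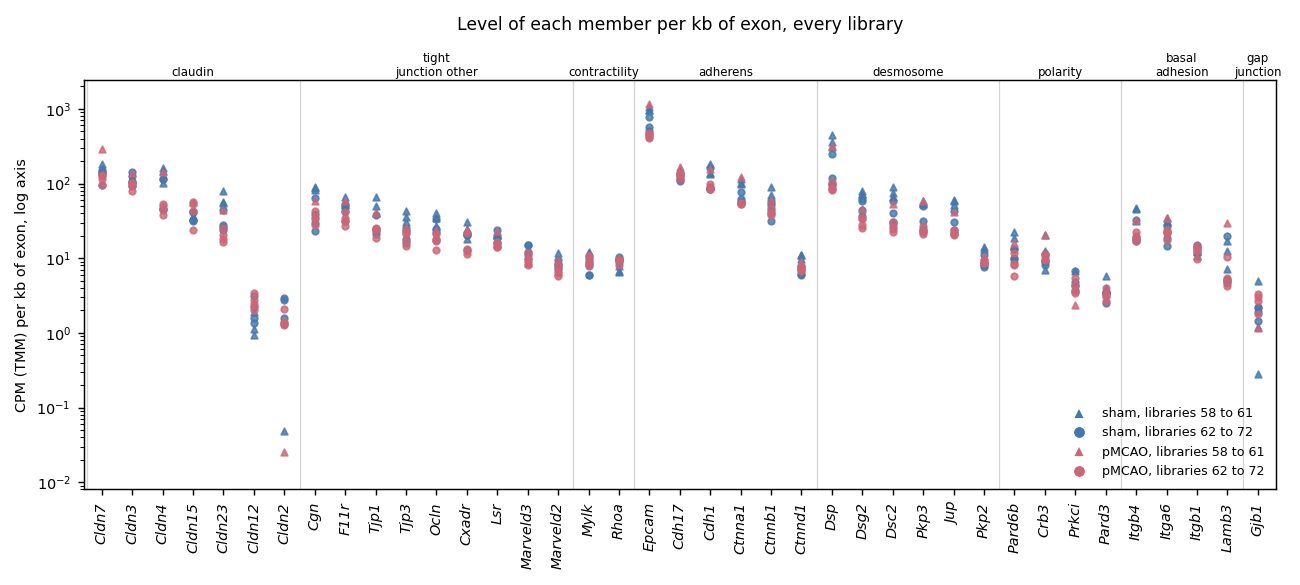
Level of each of the 39 genes in every library, in TMM-scaled CPM per kb of exon on a log axis, with colours for the groups and triangles for libraries 58 to 61. Epcam is highest and Cldn2 lowest; the 2 libraries in which Cldn2 had 0 counts (sham 2 and sham 3) cannot be drawn on this axis.

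None of the 39 genes passed the test between pMCAO and sham at the study's thresholds (limma-voom on the group alone, Benjamini-Hochberg adjusted p up to 0.05 with a log2 fold change of 1 or more in either direction). The same fit called 0 of 14462 genes (percent called 0), and edgeR's quasi-likelihood test also called 0. The study's own fit differed: it corrected for collection day and counted more pMCAO mice than the 5 here. It did report differentially expressed genes. At an unadjusted p under 0.05 the fit had 1219 genes (8.43%) and edgeR 930 (6.43%), of which 6 and 5 were among the 39.

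By direction, 31 of the 39 fold changes were below 0, with a median log2 fold change of -0.30, while 44.78% of all tested genes were below 0, with a median of 0.06. Without TMM scaling factors 19 of the 39 were below 0, with a median of 0.00 against 0.35 for all genes. Of the 6 genes with an unadjusted p under 0.05, 5 were lower in pMCAO (background 3.77%) and 1 was higher (background 4.66%). In bulk RNA, fewer cells of a type and less RNA per cell cannot be told apart.

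The desmosome genes had the lowest median of the 8 lists. All 6 had fold changes below 0, with a median of -0.70, and 5 of 6 were below 0 without TMM factors, where Pkp2, a plakophilin, was at 0.19. Dsg2, the desmosomal cadherin of simple epithelia (chromosome 18), ran from 308 to 661 CPM in the 7 sham samples, with a median of 520. Its pMCAO values were 382, 278, 289, 227 and 212 CPM. All 5 lay below the sham median, and the groups overlapped only through pMCAO 1, which lay above sham 4 and sham 7.

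The log2 fold change of Dsg2 was -0.85 (SE 0.23, 95% interval -1.33 to -0.37). Its p was 0.00165 before adjustment and 0.309 after it (limma-voom, Benjamini-Hochberg). Within the later libraries the 4 pMCAO values lay entirely below the 4 sham values, and the lone early pMCAO library lay below all 3 early sham libraries. The differences of mean log2 CPM within the early and later sets were -0.70 and -0.72. Across the alternative fits the adjusted p of Dsg2 ran from 0.00778 to 0.704, and its log2 fold change from -0.98 to -0.55.

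Dsc2, the partner cadherin of Dsg2 on the same chromosome, ran from 153 to 475 CPM in sham (median 306) and was at 284, 137, 163, 130 and 118 CPM in pMCAO. The fitted log2 difference was -0.78 (SE 0.31), with an adjusted p of 0.524 in limma-voom. Jup, plakoglobin, ran from 140 to 385 CPM in sham (median 276) and was at 268, 141, 155, 133 and 136 CPM in pMCAO, -0.62 on the log2 scale (SE 0.29) with an adjusted p of 0.585 in limma-voom. For both genes the groups overlapped, with pMCAO 1 as the highest pMCAO library. Within the early and later sets the difference was -0.51 and -0.56 for Dsc2 and -0.43 and -0.38 for Jup.

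Dsp ran from 912 to 4262 CPM in sham (median 2371) and was at 3077, 790, 1001, 806 and 852 CPM in pMCAO. Its log2 fold change of -0.82 had an SE of 0.45 and an adjusted p of 0.628 (limma-voom). The spread within sham followed the library sets, with 3007 CPM or more in sham 1 to 3 and 2371 CPM or less in sham 4 to 7. Within the early and later sets the difference was -0.20 and -0.53. The plakophilins Pkp3 (-0.49) and Pkp2 (-0.08) completed the list.

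The 7 claudins did not share a direction, with 4 below 0 and 3 above. Cldn23 (chr8:35824712-35826559, minus strand), ran from 44.4 to 147 CPM in sham (median 81.5) and was at 81.1, 32.9, 46.7, 30.5 and 37.2 CPM in pMCAO. On the log2 scale the fold change was -0.79 (SE 0.31), and limma-voom gave an adjusted p of 0.513. Later sham 4, 6 and 7, at 44.4 to 51.9 CPM, were close to the highest later pMCAO value, and the difference was -0.51 in the early and -0.59 in the later set.

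Cldn4 (chr5:134945119-134946934, minus strand) ran from 82.6 to 297 CPM in sham (median 208) and was at 256, 95.5, 79.2, 69.5 and 91.9 CPM in pMCAO, or -0.72 on the log2 scale (SE 0.37), with an adjusted p of 0.612 in limma-voom. Sham 4 and sham 6 lay among the later pMCAO values, and the difference was 0.08 in the early and -0.66 in the later set. With the library set as a covariate its log2 fold change was -0.45. Cldn12 (chr5:5489537-5514958) was the one gene of the 39 with a higher level in pMCAO at an unadjusted p under 0.05, at 3.94 to 13.3 CPM in sham (median 6.76) and 10.7, 8.50, 11.6, 14.6 and 10.3 CPM in pMCAO. The fitted log2 difference was 0.60 (SE 0.26) with an adjusted p of 0.570 in limma-voom, and sham 4 lay above 4 of the 5 pMCAO values. Within the early and later sets the difference was 0.98 and 0.40.

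The claudins with the highest level per length had fold changes near 0. Cldn7 ran from 186 to 354 CPM in sham (median 296) and from 188 to 564 in pMCAO (median 249), a log2 fold change of -0.01 (95% interval -0.55 to 0.52). Cldn3 ran from 117 to 182 CPM in sham (median 146) and from 99.2 to 174 in pMCAO (median 127), a log2 fold change of -0.16 (95% interval -0.53 to 0.21). Both were higher in pMCAO 1 than in early sham (0.83 and 0.32) and lower in the later set (-0.14 and -0.30). The pore claudin Cldn15 had a log2 fold change of 0.30 (95% interval -0.15 to 0.76).

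Cldn2 (chrX:139800828-139811386, plus strand) followed the library set. It had 2, 0 and 0 counts in sham 1 to 3 and 1 count in pMCAO 1, all at or under a floor of 3 counts, which equals 0.239 to 0.723 CPM in those libraries. The later libraries held 59 to 296 counts, or 4.44 to 9.63 CPM in sham and 4.26 to 6.91 CPM in pMCAO. The log2 fold change of Cldn2 was 0.65 (SE 1.09) on the group alone and -0.26 within the later libraries, where the groups overlapped. Leaving out 1 library gave 0.07 (without sham 1) to 1.25 (without pMCAO 1).

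**Figure D2:**
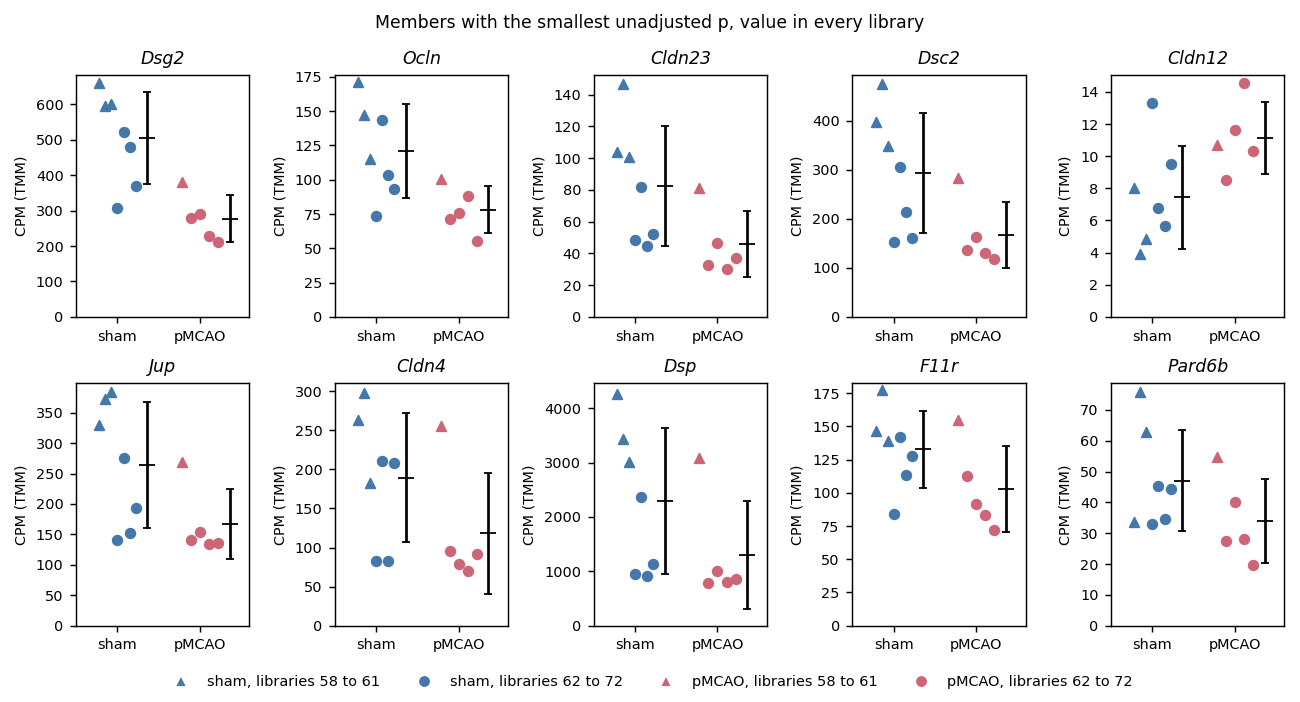
CPM (TMM-scaled, axes from 0) in every library for the 10 genes with the smallest unadjusted p, with triangles for libraries 58 to 61, circles for libraries 62 to 72, and the mean and SD of each group to the right of its points. Triangles sit above most circles in most panels, Cldn12 being the other way round for sham, and for Dsg2 the pMCAO circles all sit below the sham circles.

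All 9 other tight junction genes had fold changes below 0, with a median of -0.37, and 8 of 9 were below 0 without TMM factors. Ocln, occludin (chr13:100496507-100552718, minus strand), ran from 73.3 to 171 CPM in sham (median 115) and was at 100, 71.4, 75.4, 88.1 and 55.0 CPM in pMCAO. All 5 pMCAO values lay below the sham median, while sham 4 and sham 7 lay within their range. Its log2 fold change was -0.61 (SE 0.22, 95% interval -1.08 to -0.13), with an adjusted p of 0.504 (limma-voom), and the difference of mean log2 CPM was -0.50 in the early and -0.49 in the later libraries.

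F11r, junctional adhesion molecule A, ran from 83.8 to 177 CPM in sham (median 139) and was at 155, 112, 91.8, 83.6 and 72 CPM in pMCAO (log2 fold change -0.38, SE 0.22, adjusted p = 0.645 by limma-voom). Cgn, cingulin, ran from 139.7 to 540 CPM in sham (median 382) and from 169 to 356 in pMCAO (median 214), with a log2 fold change of -0.47. The early and later differences were 0.01 and -0.37 for F11r and -0.54 and -0.07 for Cgn. The scaffolds Tjp1 (-0.43) and Tjp3 (-0.37), the coxsackievirus and adenovirus receptor Cxadr (-0.37), and the tricellular or MARVEL-domain proteins Marveld3 (-0.31), Marveld2 (-0.28) and Lsr (-0.21) followed. Opposite-strand genes overlap 44.7% of the exon bases of Lsr, and no source used here says if reads were counted by strand.

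The contractility genes did not share the direction of the tight junction list. Mylk, myosin light chain kinase, ran from 67.6 to 136 CPM in sham (median 99.2) and from 88.9 to 124 in pMCAO (median 107). Rhoa, a small GTPase of the actin cytoskeleton, ran from 49.7 to 77.2 CPM in sham (median 65.8) and from 61.5 to 75.1 in pMCAO (median 71.5). Their log2 fold changes were 0.13 (95% interval -0.32 to 0.57) and 0.12 (95% interval -0.22 to 0.47). The early and later differences were -0.07 and 0.35 for Mylk and 0.51 and -0.06 for Rhoa.

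Of the 6 adherens junction and cell adhesion genes, 5 had fold changes below 0 and 1 of 6 was below 0 without TMM factors. Epcam ran from 1014 to 2357 CPM in sham (median 1707) and was at 2531, 965, 921, 882 and 1032 CPM in pMCAO (log2 fold change -0.46, SE 0.31), with differences of 0.20 in the early and -0.40 in the later set. Cdh17, the liver-intestine cadherin, ran from 478 to 677 CPM in sham (median 624) and from 517 to 738 in pMCAO (median 593), a log2 fold change of 0.03 (95% interval -0.33 to 0.39), with differences of 0.14 and 0.08. E-cadherin (Cdh1, -0.29) and its catenins Ctnnb1 (-0.31), Ctnna1 (-0.30) and Ctnnd1 (-0.10) lay between them. A gene model on the same strand, Gm28635, covers 4482 of the 7319 exon bases of Ctnnd1, so its count is uncertain.

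Ctnna1, alpha-catenin (chromosome 18), was the only gene beside Dsg2 whose later pMCAO values, 339 to 350 CPM, lay entirely below the later sham values of 365 to 492 CPM. Those are 2 of 39 genes, against 1.64% of all tested genes, and 0 of 39 lay entirely above (background 1.87%). In the early libraries Ctnna1 went the other way, with 787 CPM in pMCAO 1 against 625 to 737 CPM in sham 1 to 3. Over all 12 libraries no gene of the 39 had groups that did not overlap, against 0.194% of all genes with pMCAO below sham and 0.311% with pMCAO above.

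Pard6b, a scaffold of the apical Par complex (chr2:168081004-168101203), ran from 33.0 to 75.8 CPM in sham (median 44.5) and was at 54.6, 27.6, 40.3, 28.1 and 19.6 CPM in pMCAO (log2 fold change -0.45, SE 0.26, adjusted p = 0.648 by limma-voom). Without pMCAO 5 its fold change was -0.26 and without TMM factors -0.16, and the early and later differences were 0.01 and -0.48. The Par complex kinase Prkci (-0.35) and scaffold Pard3 (-0.15) were also below 0, and Crb3, of the Crumbs complex, was at 0.23, with 10.98 to 31.7 CPM in sham (median 14.6) and 15.0 to 32.2 in pMCAO (median 16.6). Among the basal adhesion genes, Itgb4 ran from 121 to 329 CPM in sham (median 219) and from 120.3 to 229.6 in pMCAO (median 140), and Itga6 from 133 to 311 (median 245) and from 160.1 to 311 (median 202). The log2 fold changes of this list were -0.35 for Itgb4, -0.12 for the laminin chain Lamb3, -0.08 for Itga6 and -0.05 for Itgb1, and 1 of 4 was below 0 without TMM factors. The connexin Gjb1 had 0.478 to 8.44 CPM in sham (median 3.21) and 1.96 to 5.72 in pMCAO (median 4.58), a log2 fold change of 0.75 (SE 0.46). The early and later differences were 0.76 and 0.13 for Crb3, -0.30 and -0.08 for Itgb4, 0.09 and 0.06 for Itga6 and -0.10 and 0.48 for Gjb1. For Lamb3 they were 1.36 and -0.25, with pMCAO 1 at 196 CPM against 47.5 to 112 CPM in sham 1 to 3.

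**Figure D3:**
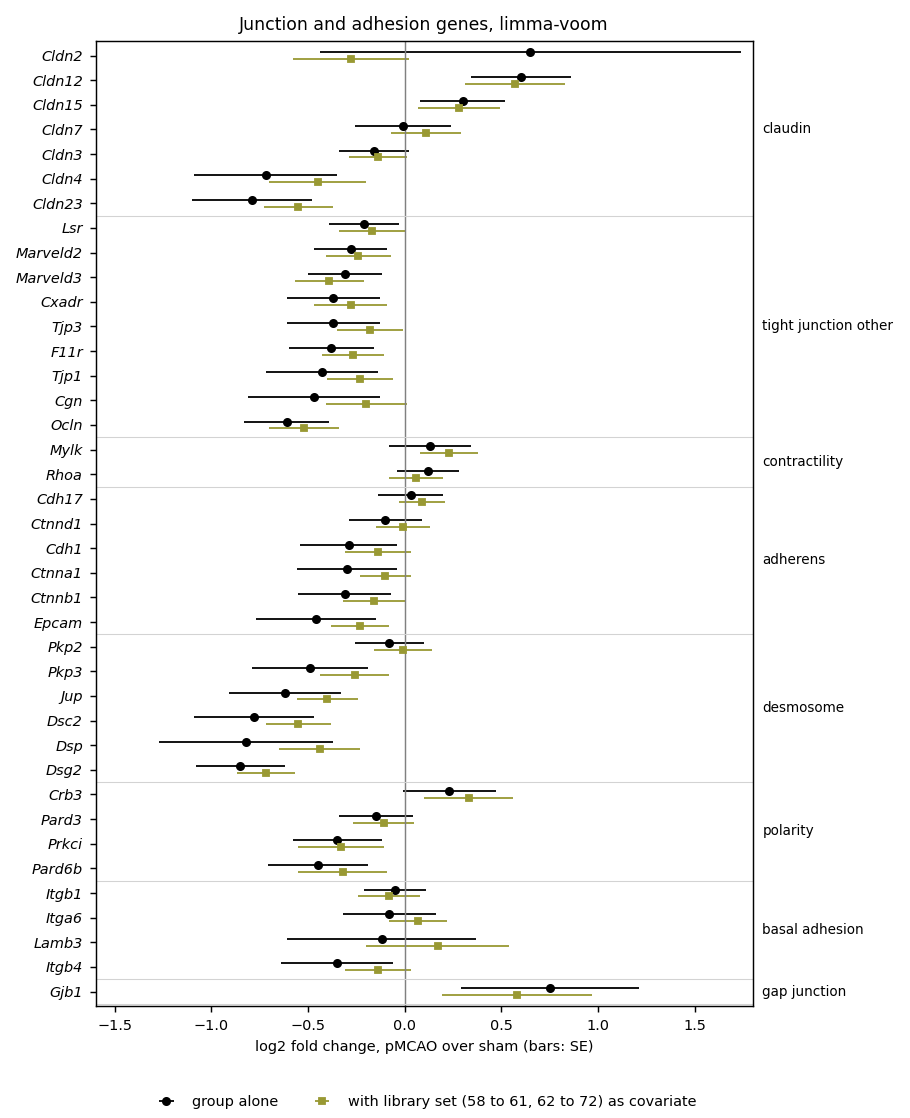
Log2 fold change of pMCAO over sham for the 39 genes, grouped by list, with bars for the SE. Black circles are the fit on the group alone and squares the fit with the library set as a covariate; 31 circles and 29 squares lie below 0, and the squares have shorter bars where the library sets differ most.

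With the library set as a covariate in limma-voom, 16 genes were called (0.111%), and 0 of the 39. At an unadjusted p under 0.05 there were 8 of the 39, with 7 lower in pMCAO (background 4.60%) and 1 higher (background 5.43%). The desmosome median moved from -0.70 to -0.42, and Dsg2 stood at -0.72 (SE 0.15, adjusted p = 0.0694 by limma-voom).

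With the library number itself as a covariate, 156 genes were called (1.08%), again with 0 of the 39. In all, 3 of the 39 had an adjusted p of at most 0.05 in that limma-voom fit, against 1.83% of all genes, with fold changes short of the threshold. They were Dsg2 (-0.91, adjusted p = 0.00778), Dsc2 (-0.89, adjusted p = 0.0235) and Cldn23 (-0.92, adjusted p = 0.0351). At an unadjusted p under 0.05 this fit had 18 of the 39 (18.4% of all genes), 17 of them lower in pMCAO (background 8.45%).

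Within the later libraries, where each group had 4 samples, 30 of the 39 fold changes were below 0, with a median of -0.22. Of the 14462 genes of the main fit, 6813 were below 0 in the later libraries, with a median of 0.03. Sham 5 was the highest of these 8 libraries for 24 of the 39 genes, against 18.5% of all tested genes. The others were highest for fewer: sham 4 for 2 (10.6%), sham 6 for 2 (12.9%), sham 7 for 5 (17.6%), pMCAO 2 for 1 (9.20%), pMCAO 3 for 1 (8.48%), pMCAO 4 for 3 (10.6%) and pMCAO 5 for 1 (12.2%). With sham 5 left out, 22 of the 39 were below 0 with a median of -0.08, against 0.03 for all genes of that fit. Dsp then moved from -0.53 to -0.20, Jup from -0.38 to -0.16 and Dsg2 from -0.71 to -0.59. Sham 5 also had the highest summed level of 7 villus tip markers among the later libraries, 24380 CPM against 6473 to 12810 CPM in the other 7. The part of villus tip content in these values was not tested.

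The levels of many of the 39 genes followed the library number. What follows is a description of libraries that were known to stand apart, with no test. Summed over the 39 genes, the level was 12340 to 14190 CPM in the early libraries and 5929 to 10690 CPM in the later ones. The early mean was above the later mean for 32 of the 39 genes (5952 of all 14462), and for 12 of the 39 without TMM factors (1373 of all 14462). Relative to the median gene, the median of the 39 was higher in the early libraries by 0.85 on the log2 scale with TMM factors and by 0.79 without.

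Among these 39, the early values lay entirely above the later ones for 12, against 5.46% of all tested genes. They were Dsp, Pkp3, Epcam, Cdh17, Ctnna1, Ctnnb1, Ctnnd1, Tjp1, Tjp3, Cldn7, Mylk and Itga6. Dsp had the largest difference of mean log2 CPM, 1.73, with 3007 to 4262 CPM in the early libraries against 790 to 2371 CPM in the later ones. Cldn23 (1.24), Cldn4 (1.23), Lamb3 (1.20) and Dsc2 (1.16) came next, with overlapping ranges.

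In the other direction, only Cldn2 did not overlap between the sets, against 9.40% of all genes. Gjb1 (-0.86), Cldn12 (-0.59), Rhoa (-0.28) and Marveld3 (-0.13) overlapped. The neighbouring genes Cldn4 and Cldn3, which lie on opposite strands, showed the unequal shift within a library: the ratio of Cldn4 to Cldn3 CPM was 1.44 to 2.04 in the early libraries and 0.615 to 0.753 in 6 of the 8 later ones, with 1.35 in sham 5 and 1.14 in sham 7.

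**Figure D4:**
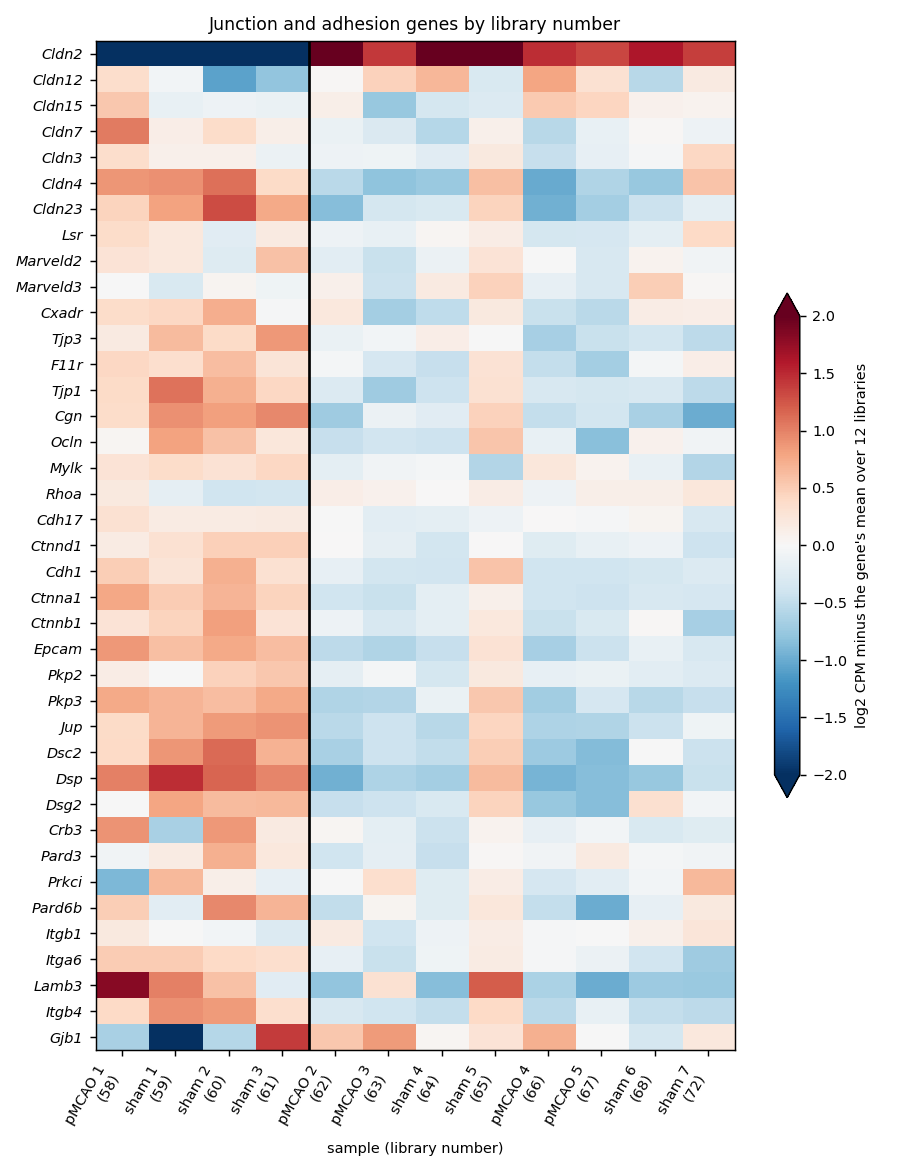
Log2 CPM minus the mean of each gene over the 12 libraries, with the libraries in order of their number and a line between 61 and 62; colours stop at 2 in either direction. The libraries left of the line are above the mean for most genes, Cldn2 runs the other way, and sham 5 is the highest of the later libraries for 24 of the 39.

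Markers of other epithelial cells moved with the library sets as well. The summed level of 8 goblet cell markers was 4132 to 8113 CPM in the early libraries and 20590 to 55200 CPM in the later ones, and enteroendocrine markers were at 199 to 403 and 1648 to 3450 CPM. Tuft cell markers were at 18.4 to 57.9 against 226 to 1024 CPM, and stem cell markers at 9.56 to 28.2 against 35.9 to 93.3 CPM. Paneth cell (10.8 to 21.7 and 16.8 to 92.0 CPM) and proliferation markers (47.3 to 67.97 and 43.6 to 191 CPM) overlapped between the sets, as did the markers of immune cells (93.3 to 340 and 190.1 to 835 CPM). Of the stromal and endothelial lists 1 gene each was in the table, and the other markers of those lists were not analysed here.

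The villus tip markers ran the other way, with 20300 to 34350 CPM in the early libraries and 6473 to 24380 CPM in the later ones. The sets overlapped through sham 5, at 24380 CPM against 20300 to 22440 CPM in sham 1 to 3, and pMCAO 1 held the highest value. Mitochondrial ribosomal RNA took 34.8% to 54.5% of the counts in the early libraries and 14.6% to 35.2% in the later ones, and 13386 to 14712 genes against 15343 to 15766 were detected. The part of cell composition and RNA quality in the junction gene values was not tested.

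Of 119 other junction and adhesion genes listed, 78 were tested. In the limma-voom fit on the group alone 0 were called, 54 were below 0 (44.78% of all tested genes) and 24 above, and 5 had an unadjusted p under 0.05 (8.43% of all tested genes). Lama5, a laminin alpha chain, ran from 0.207 to 1.69 CPM in sham (median 0.946) and was at 3.16, 2.38, 1.43, 3.92 and 4.71 CPM in pMCAO. Its lowest value, 0.207 CPM in sham 2, lay under the floor of 3 counts, which equals 0.6215 CPM in that library. The fitted log2 difference was 1.89 (SE 0.58) with an adjusted p of 0.380 in limma-voom, and the groups overlapped through pMCAO 3.

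Lama3, the laminin chain that pairs with the product of Lamb3, was at 428 to 3564 CPM in sham (median 1593) and 1534, 486, 609, 351 and 400 CPM in pMCAO, a log2 fold change of -1.26 (SE 0.53) that was -0.78 (SE 0.25) with the library set as a covariate. It was the one gene of this list called with the library number as a covariate (-1.41, adjusted p = 0.0313 by limma-voom). The remaining genes with the smallest unadjusted p were Ctnnal1 (-0.58), the kinase Rock2 (-0.61), the myosin heavy chain Myh14 (-0.73) and the actin-binding protein Shroom3 (-0.49), at -0.56, -0.42, -0.47 and -0.33 with the library set as a covariate. None of these passed the test on the group alone.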

How the data were processed

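RNA from 12 sorted samples was analysed (7 sham, 5 pMCAO). According to the methods, the authors removed ribosomal RNA by cleavage, aligned paired-end reads to GRCm38 with STAR and ran limma-voom in Degust with a correction for collection day. That day is not in the labels, so no batch term was used, and strand use in counting was not given in the sources used here. The deposited table held raw counts per gene, limited to genes reaching 0.5 CPM in at least 4 samples. The authors' CPM columns, their log2 fold changes and average log2 expression, and their p-values and false discovery rates in the deposited table were not used.

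Counts were filtered with filterByExpr at its defaults (minimum count 10, 14462 genes kept, 1393 removed), given TMM scaling factors and fitted by limma-voom on the group (limma 3.58.1, edgeR 4.0.16, R 4.3.3), with Benjamini-Hochberg adjustment over all genes tested. A call needed an adjusted p up to 0.05 with a log2 fold change of 1 or more in either direction. CPM values are TMM-scaled, log2 CPM used a prior count of 2, and "unadjusted" calls used p under 0.05. The fits were tested on simulated data. Those data held no difference between the library sets, so they cannot show how the fit on the group alone behaves with that split. Within groups, no pair of libraries agreed within sampling noise (lowest chi-square per degree of freedom 20.1). Counting error only is covered by the floor of 3 counts, as no source used here names molecular identifiers.

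Alternatives were DESeq2 1.42.0, the quasi-likelihood test of edgeR, other scaling and filters, quality weights, covariates for library set or number, a replicate block and leaving out each sample. Those without sham 5 and the unblocked fit on replicates 1 to 5 were chosen after seeing the data. The members, gene lists and the split by library number were chosen with earlier results of these data known. Values per sample are given for the 10 members with the smallest unadjusted p and the 2 of each list highest per exon length; between library sets the 5 largest differences in each direction are named, and of the other junction genes the 6 with the smallest unadjusted p and any called. Ctnna1, Ctnnal1, Ctnnd1 and Lsr were singled out after their values or overlaps were seen. Exons of 12 members overlap opposite-strand genes and those of 2 a gene on the same strand.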

Additional observations from a re-analysis of the deposited data

Results flagged for a closer look

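In the pMCAO group 1 sample, pMCAO 1, lay far from the other 4 for 10 of the 39 genes. The samples of each group were compared for each gene in log2 CPM, 78 groups in all, and no sham sample stood out. The number flagged by chance, about 3.9 (1 in 20), takes the groups as independent, while all 10 flags came from 1 library. Sham 1 to 3 are all early, so this comparison cannot flag 1 sham sample for a shift shared by the early libraries. The cause of the flags was not tested. The library pMCAO 1 is the single pMCAO library with a number from 58 to 61. It was lower than the others for Cldn2 (-2.42 against 2.12 to 2.81).

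For the remaining 9 genes it was higher. The values were 8.0 for Cldn4 against 6.12 to 6.58, 9.14 for Cldn7 against 7.56 to 7.97, 9.48 for Cdh1 against 8.58 to 8.82 and 9.62 for Ctnna1 against 8.40 to 8.45. Epcam was at 11.31 against 9.78 to 10.01 and Dsp at 11.59 against 9.63 to 9.97. Jup was at 8.07 against 7.06 to 7.27, Pkp3 at 7.72 against 6.26 to 6.61 and Crb3 at 5.01 against 3.92 to 4.15. Set against sham 1 to 3 alone, pMCAO 1 lay above their values for Cldn7, Ctnna1, Epcam, Pkp3 and Crb3. It lay below them for Jup and within them for Cldn2, Cldn4, Cdh1 and Dsp.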

How the results depend on the processing

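Against 0 genes called over all, DESeq2 called 70, no TMM factors 3, the library set 16 (29 without sham 5), the library number 156, quality weights 18, the replicate block 259 and the unblocked fit on the same samples 4; leaving out 1 sample gave 0 to 17, with 17 without pMCAO 3, 8 without pMCAO 1 and 5 without sham 7. Of the 39 genes 0 were called except under the replicate block, which called 3: Cldn23 (-1.10, adjusted p = 0.0245), Dsc2 (-1.0, 0.0278) and Dsp (-1.18, 0.0269, all limma-voom). Over all genes the block called 259 of the 13644 tested. That block used replicates 1 to 5 of each group, and same-numbered samples had correlations of 0.40, -0.24, -0.16, 0.16 and 0.08. Replicates 1, 4 and 5 fell in the same library set in both groups, and replicates 2 and 3 did not. The block is thus partly mixed with the library set, and the labels name no pairing. DESeq2 gave Dsg2 an adjusted p of 0.0284 at -0.88.

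Genes of the 39 with an unadjusted p under 0.05 numbered 6 (8.43% of all genes), and 18 with the library number (18.4%), 15 with quality weights (13.8%), 18 with the block (17.6%), 13 without it (16.2%) and 2 in the later libraries without sham 5 (7.19%). Leaving out 1 sample gave 2 (without pMCAO 4, 6.25%) to 14 (without pMCAO 1, 14.1%), with 10 without sham 4 (8.81%) and 3 without pMCAO 5 (5.89%). The count below 0, 31 of 39, became 19 without TMM factors and 28 to 32 with 1 sample left out. The count higher in early libraries, 32 (5952 of all 14462 genes), became 12 without TMM factors (1373 of all 14462 genes). Among the other junction genes the library number called 1 (1.08% of all genes) and the block 4 (259 of all 13644 genes), against 0. The log2 fold change of Cldn2, 0.65, became -0.02 in edgeR, 0.00 in DESeq2, -0.28 with the library set (-0.11 without sham 5), -0.26 in the later libraries (-0.08 without sham 5) and -0.11 with the block; it was 1.11 without TMM factors, 1.6 without the block on replicates 1 to 5 and, with 1 sample left out, 0.07 (without sham 1), 0.23 (pMCAO 2), 0.24 (sham 2), 0.30 (sham 3), 1.09 (sham 5), 1.21 (sham 6) and 1.25 (pMCAO 1). Causes were not tested. With Cldn2 at 0 to 2 counts in the early libraries, no difference between the groups can be read there. Sham 1, with 15852161 counts in total, held 2 counts of Cldn2, and sham 4, with 7852208, held 78.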
